A study of Mus musculus with 6 samples.

Results

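Carbonic anhydrase transcripts were compared between kidneys of Foxd1 null and wild type mouse embryos at E14.5. The 10 members are Car2, Car3, Car4, Car5b, Car7, Car8, Car10, Car11, Car12 and Car14, a given selection of 10 of the 16 carbonic anhydrase genes measured, with each gene read from the single-symbol array row selected on the highest mean over the 6 pools, out of 19938 genes measured in this way. Car4 was already known to be among the largest falls when the family was picked, so its difference is given as a description, without an adjusted p. Where Car4 is counted or drawn as passing the threshold, nothing is read from that. The remaining 6 genes of the family, Car1, Car5a, Car6, Car9, Car13 and Car15, are given beside the members; why they are not among the 10 is not stated. Each of the 16 genes had a single row.

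The mutant samples were 3 pools labelled Foxd1 null, and the comparison samples were 3 pools of wild type littermates, all from intercrosses of Foxd1+/- mice. Each pool held 2 kidney pairs from different litters, 3 litters in all, so any 2 pools share at least 1 litter, and the litters of a pool are not labelled. Whole kidneys of embryos of undetermined sex were used, with 50 ng of RNA amplified to cDNA and hybridised to a whole-transcript array. The labels name no Cre, transgene or agent in either group.

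Carbonic anhydrases are zinc enzymes that interconvert carbon dioxide and water with bicarbonate and a proton. In the mature kidney the cytosolic enzyme and the enzymes anchored on the tubule surface work together in the reclamation of filtered bicarbonate and in acid secretion. Several relatives in the family keep the fold but have lost catalytic activity. Foxd1 is a forkhead factor of the stromal cells that surround the developing nephrons.

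The array row of Foxd1 itself was not lower in the pools labelled null. It read 10.05, 9.77 and 9.71 in null pools 1, 2 and 3, against 9.40, 9.55 and 9.69 in wild type pools 1, 2 and 3, on the log2 scale of all values below. The sources used here do not say whether the probes fall in the part of the gene that the allele lacks, so the row may check nothing, and "null" below stands for the pools labelled Foxd1 null. The 6 array medians lay between 6.98 and 7.06, and the number of arrays limits the precision. Null pool 1 was the only pool whose values correlated less with its own group (mean r 0.9896 over all array rows, which are not independent) than with the other group (0.9906). Without it 572 genes were called higher and 171 lower, against 326 and 153 with all pools, and the difference was -1.99 for Car4 and 0.75 for Car3.

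Car4 encodes an enzyme tethered to the outer cell surface by a glycolipid anchor, known from the luminal membrane of the proximal tubule and the thick ascending limb. It was the member with the largest difference, and its fall was known when the family was picked. The RefSeq window around its annotated start is shown because Car4 carries this difference, and that of Car14, a membrane-spanning enzyme that was not called, is shown for comparison. Capitals mark matches to a hypoxia response core (ACGTG, here on the opposite strand as CACGT) and a TATA box (TATAAA). Both windows are from GRCm38.p6, with 250 bases before and 50 after the start, and they lie at chr11:84957504-84957803 on the plus strand for Car4 and at chr3:95904636-95904935 on the minus strand for Car14.

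Car4: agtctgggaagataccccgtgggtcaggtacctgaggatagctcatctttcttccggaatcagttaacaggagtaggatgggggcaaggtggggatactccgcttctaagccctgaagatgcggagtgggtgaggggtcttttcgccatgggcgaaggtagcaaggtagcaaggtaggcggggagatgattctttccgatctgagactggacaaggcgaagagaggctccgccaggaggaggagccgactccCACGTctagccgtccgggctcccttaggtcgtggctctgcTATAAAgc

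Car14: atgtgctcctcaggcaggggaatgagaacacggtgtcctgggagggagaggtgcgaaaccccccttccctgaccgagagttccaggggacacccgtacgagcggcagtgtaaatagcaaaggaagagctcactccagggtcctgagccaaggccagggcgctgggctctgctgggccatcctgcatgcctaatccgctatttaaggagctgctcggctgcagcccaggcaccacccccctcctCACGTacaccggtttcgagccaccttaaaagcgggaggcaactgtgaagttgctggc

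Of the members, 7 had such windows, 11 windows in all. Car2, Car3 and Car8 had none in the table. The 5 motifs searched on both strands were a forkhead motif (GTAAACA), a short motif of the tubule factor HNF1 (GTTAAT), an HNF4 motif (CAAAGTCCA), the hypoxia core and the TATA box, none of them overlapping another in these windows. The forkhead, HNF1 and HNF4 letters occurred in 0 of the 11 windows, where 3.65%, 7.10% and 0.475% of all 32851 windows held them. The hypoxia core was found in 1 window each of Car4, Car14 and Car10, against 19.6% of all windows. The TATA letters of Car4 begin 43 bases after the annotated start, and 13.6% of all windows hold such a match. A match here is a description of letters only.

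Car4 read 7.16, 6.62 and 6.38 in null pools 1, 2 and 3, against 8.60, 8.58 and 8.30 in wild type pools 1, 2 and 3. All null pools lay below all wild type pools, with a gap of 1.14 between the nearest 2 pools, and null pool 1 was the highest of its group. The means were 6.72 ± 0.40 in null and 8.49 ± 0.17 in wild type kidneys (SD, n = 3 each), a difference of -1.77 (SE 0.17, 95% interval -2.16 to -1.38), or 3.42-fold lower in null. In the authors' deposited table Car4 was the only one of the 16 family genes whose row was present, and its fold was 3.29, also lower in null. That table gives a p-value for expression of 0.27 in null and of 3.62e-05 in wild type kidneys, so the null level is not distinguished from background there and the fold may be larger than measured.

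**Figure D1:**
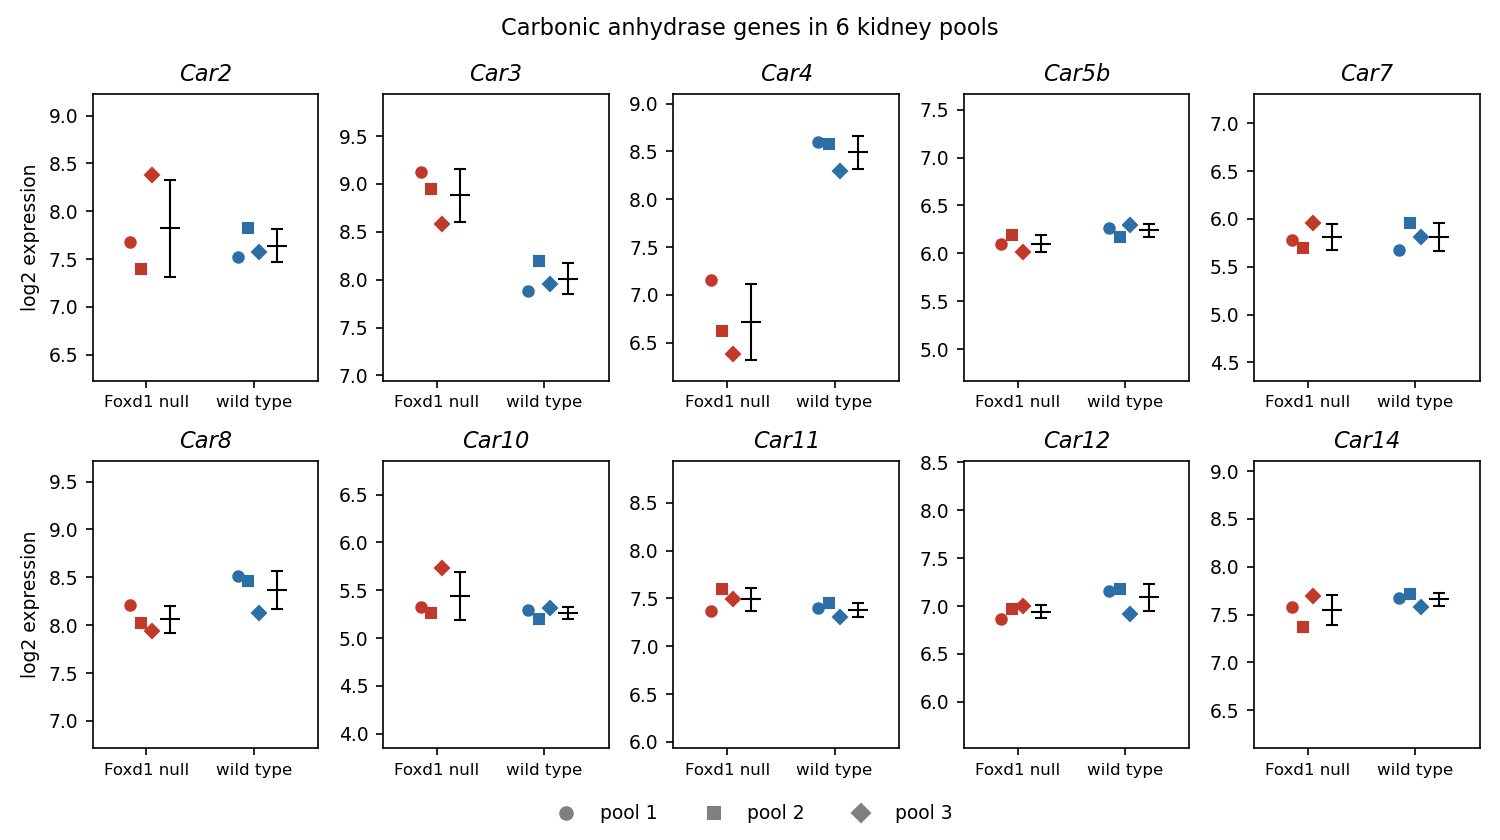
Log2 expression of the 10 members in the 3 Foxd1 null pools (red, left) and the 3 wild type pools (blue, right); symbols mark the pool number, and the black bars give the mean ± SD of n = 3. Each panel spans 3 log2 units around its own centre; only Car4 (null 6.38 to 7.16, wild type 8.30 to 8.60) and Car3 (null 8.58 to 9.12, wild type 7.88 to 8.20) separate the groups.

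Car3, a cytosolic enzyme of low activity that is abundant in skeletal muscle and adipose tissue, moved the other way. It read 9.12, 8.95 and 8.58 in null pools 1, 2 and 3, against 7.88, 8.20 and 7.96 in wild type pools 1, 2 and 3. The lowest null pool stood 0.38 above the highest wild type pool. Car3 averaged 8.88 ± 0.28 in null and 8.01 ± 0.16 in wild type kidneys (SD, n = 3 each), and it rose by 0.87 (SE 0.14, 95% interval 0.56 to 1.18), or 1.83-fold, with an adjusted p = 0.0105 in limma's fit across all genes. The call was lost without null pool 2 (adjusted p = 0.0647) or without wild type pool 1 (0.055), and when all array rows were tested (0.0972), while the difference stayed between 0.75 and 1.02 when any single pool was left out. The row of Car3 is absent from the authors' deposited table.

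Across the members, 1 rose (Car3), 1 was lower (Car4) and 8 did not pass an adjusted p of 0.05. Over all 19938 genes, 1.64% passed as higher and 0.767% as lower in null, 2.40% in all. The same 2 members were those whose groups did not overlap, where 19.5% of all genes had groups without overlap, 11.5% with null higher and 8.04% with null lower. Since the family was picked with Car4 known, nothing is read from these counts. The median difference was -0.06 over the members and 0.05 over the 16 family genes, against 0.01 over all genes.

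**Figure D2:**
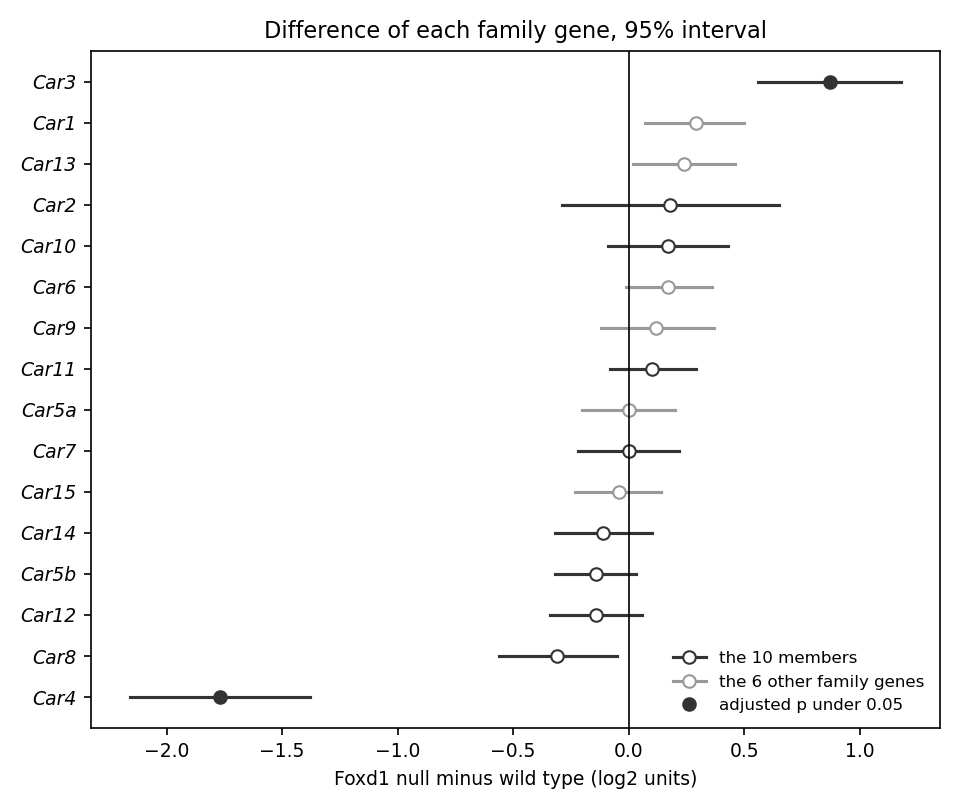
Foxd1 null minus wild type difference in log2 units for the 16 family genes, with 95% intervals from the fit across all genes; black marks the 10 members, grey the 6 other genes, and filled points passed an adjusted p of 0.05. Car4 at -1.77 and Car3 at 0.87 stand at opposite ends, Car4 with its fall known beforehand, and the other 14 differences lie between -0.31 and 0.29.

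Car2 is the fast cytosolic enzyme, known from proximal tubule and intercalated cells of the mature kidney and from red cells. It read 7.68, 7.40 and 8.38 in null pools 1, 2 and 3, against 7.52, 7.83 and 7.57 in wild type pools 1, 2 and 3. Null pool 3 was the highest and null pool 2 the lowest of all 6, so the null range of 0.98 enclosed the wild type range of 0.31. The difference of 0.18 (SE 0.21, 95% interval -0.29 to 0.65) did not pass (adjusted p = 0.777), and without null pool 3 it was -0.10.

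The other intracellular enzymes among the members, Car5b and Car7, showed small differences. Car5b, an enzyme of the mitochondrial matrix, read 6.10, 6.19 and 6.01 in null pools 1, 2 and 3, against 6.27, 6.17 and 6.30 in wild type pools 1, 2 and 3. Only wild type pool 2 fell within the null range, and the difference was -0.14 (SE 0.08, adjusted p = 0.474). Car7, a cytosolic enzyme best known from brain, read 5.78, 5.70 and 5.96 in null pools 1, 2 and 3, against 5.67, 5.96 and 5.81 in wild type pools 1, 2 and 3. Its groups covered nearly the same range, and its 95% interval was -0.22 to 0.22. With Car10 it is one of the 2 members among the dimmest 25% of genes, and 8 members were above that limit.

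Car12 and Car14 are membrane-spanning enzymes with the active site outside the cell, Car14 being known from the proximal tubule. Car12 read 6.86, 6.97 and 7.00 in null pools 1, 2 and 3, against 7.16, 7.18 and 6.92 in wild type pools 1, 2 and 3. Wild type pools 1 and 2 stood above every null pool but wild type pool 3 did not, and the difference was -0.14 (SE 0.09, 95% interval -0.34 to 0.06, adjusted p = 0.54). Car14 read 7.58, 7.37 and 7.69 in null pools 1, 2 and 3, against 7.67, 7.72 and 7.58 in wild type pools 1, 2 and 3. The groups overlapped, and the difference of -0.11 (SE 0.09, 95% interval -0.32 to 0.10) did not pass (adjusted p = 0.675).

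Car8, Car10 and Car11 are the related proteins without catalytic activity. Car8, which binds the inositol trisphosphate receptor in Purkinje neurons, read 8.21, 8.02 and 7.94 in null pools 1, 2 and 3, against 8.51, 8.46 and 8.13 in wild type pools 1, 2 and 3. Wild type pool 3 fell below null pool 1, which made the groups overlap. Car8 had the next largest negative difference after Car4, at -0.31 (SE 0.11, 95% interval -0.56 to -0.05). It was the only member among the 8 without a call that had an unadjusted p under 0.05 (0.0221 in limma's fit), as had 14.1% of all genes, and its adjusted p = 0.246 did not pass.

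Car10 and Car11 encode secreted relatives best known from the nervous system. Car10 read 5.32, 5.26 and 5.73 in null pools 1, 2 and 3, against 5.29, 5.20 and 5.31 in wild type pools 1, 2 and 3. Null pool 3 alone stood apart, and the difference of 0.17 (SE 0.12, adjusted p = 0.585) was 0.03 without that pool. Car11 read 7.37, 7.60 and 7.49 in null pools 1, 2 and 3, against 7.40, 7.45 and 7.31 in wild type pools 1, 2 and 3. Null pools 2 and 3 were the highest of the 6, and the difference of 0.10 (SE 0.08, 95% interval -0.08 to 0.29) did not pass (adjusted p = 0.659).

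Of the 6 family genes outside the members, 0 passed in limma's fit (adjusted p 0.206 to 0.999; 2.40% of all genes passed), and 2 had an unadjusted p under 0.05, Car1 and Car13 (14.1% of all genes). Car1, the abundant enzyme of adult red cells, read 5.84, 6.05 and 5.89 in null pools 1, 2 and 3, against 5.73, 5.72 and 5.45 in wild type pools 1, 2 and 3. These groups did not overlap, and the difference was 0.29 (SE 0.10, adjusted p = 0.206). The cytosolic Car13 differed by 0.24 (SE 0.10, adjusted p = 0.297). Car6, the enzyme of saliva, was the other gene without overlap (19.5% of all genes), with a difference of 0.17 (SE 0.08). Car9, a transmembrane enzyme induced by hypoxia, differed by 0.12 (SE 0.11), the surface enzyme Car15 by -0.04 (SE 0.08) and the mitochondrial Car5a by -0.00 (SE 0.09).

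In the RefSeq annotation of GRCm38.p6, Car13, Car1, Car3 and Car2 follow each other on chromosome 3 with no other protein-coding gene between them. Their differences in that order were 0.24, 0.29, 0.87 and 0.18, and only Car3 passed. The protein-coding neighbours outside this run were Rbis on the Car13 side, with a difference of -0.00 (SE 0.14), and Gm9733 on the Car2 side, with 0.33 (SE 0.09, adjusted p = 0.114); both were named for their place after their values were seen. Whether Car3 differs from its neighbours was not tested.

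Lists of cell type markers showed which pools held more or less of each cell type's transcripts. These lists were chosen with earlier results of these data known, so the counts and calls in them are a description. Over all genes, 1.64% rose and 0.767% fell at an adjusted p under 0.05 in limma's fit. In bulk tissue, fewer cells of a type and less RNA per cell cannot be told apart. Beside Car4, 8 of 22 measured proximal tubule markers fell and 0 rose, among them the endocytic receptor Lrp2 (-1.59, SE 0.20) and Keg1 (-2.19, SE 0.22), with a list median of -0.24. The mean log2 level of that list was 6.55, 6.54 and 6.66 in null pools 1, 2 and 3, against 7.16, 7.11 and 6.82 in wild type pools 1, 2 and 3. Among 14 markers of Henle's loop and the distal tubule, 6 fell and 0 rose, with a median of -0.50, led by the cotransporter Slc12a1 (-2.14, SE 0.27) and Tmem52b (-1.67, SE 0.19). That list averaged 6.46, 6.58 and 6.60 in null pools 1, 2 and 3, against 7.25, 7.27 and 7.08 in wild type pools 1, 2 and 3.

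In both tubule lists wild type pool 3 was the lowest of its group, as it was for Car4. Among null pools Car4 was highest in pool 1, which neither list mean was, but single markers varied. Slc12a1 (5.33, 5.16 and 4.98 in null pools 1, 2 and 3) and Lrp2 (7.28, 6.82 and 7.02) were highest in null pool 1. Keg1 (5.62, 5.76 and 5.94) and Tmem52b (6.36, 5.99 and 6.49) were highest in null pool 3. All null values of Slc12a1 and Keg1 lay under 6.11, the limit of the dimmest 25% of genes, so nothing is read from their order. Slc12a1 lost its call with the intensity trend and robust model (adjusted p = 0.0694) and when all array rows were tested (0.0646), as did Lrp2 (0.062) and Tmem52b (0.0504) in the test of all rows. Cubn, another of the 8, lost its call in 7 of 15 alternatives, 5 of them fits without 1 pool, any but wild type pool 3 (adjusted p up to 0.16), and Cldn16, another of the 6, lost it over all rows (0.143) and without wild type pool 1 (0.0852) or 2 (0.0876). Pdzk1 of the 8 lost it over all rows (0.0958). Among 9 markers of the renal vesicle, the precursor of the tubules, 4 fell (Lhx1 by 1.18, Osr2 by 1.01, Cdh6 by 0.85 and Pax8 by 0.77, on the log2 scale; Pax8 with adjusted p = 0.0724 over all rows). The part of tubule content in the Car4 difference was not tested.

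Beside Car3, the skeletal muscle list averaged 8.45, 8.26 and 7.65 in null pools 1, 2 and 3, against 6.81, 7.54 and 7.83 in wild type pools 1, 2 and 3. Null pools 1 and 2 were the highest on both Car3 and this list, but null pool 3 stood below wild type pool 3 on the list and above it on Car3. Of its 14 genes 13 lay above 0, against 10858 of all 19938 genes, with a median difference of 0.90. Only troponin Tnnt3 passed in limma's fit (1.09, SE 0.23, adjusted p = 0.0401), while 10 had an unadjusted p under 0.05, against 14.1% of all genes. Tnnt3 lost the call in 9 of its 15 alternatives, 5 of them fits without 1 pool, any but null pool 3 (adjusted p up to 0.163), with null pools 1, 2 and 3 at 9.97, 9.83 and 9.08 against 8.15, 8.73 and 8.73 in wild type pools 1, 2 and 3. Of 6 adipocyte markers 0 passed in limma's fit (1 at an unadjusted p under 0.05) and the median was -0.07; the brightest, Fabp4 and Lpl, differed by -0.19 and 0.09. In the smooth muscle list 5 of 6 rose (1.64% of all genes), Acta2 by 1.46 (SE 0.12) and Actg2 by 1.37 (SE 0.16) the most. Of these Cnn1 lost its call over all rows (adjusted p = 0.11) and without wild type pool 2 (0.0607) or 3 (0.0509), and Tagln over all rows (0.0834). The part of muscle or other non-renal tissue in the Car3 difference was not tested.

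**Figure D3:**
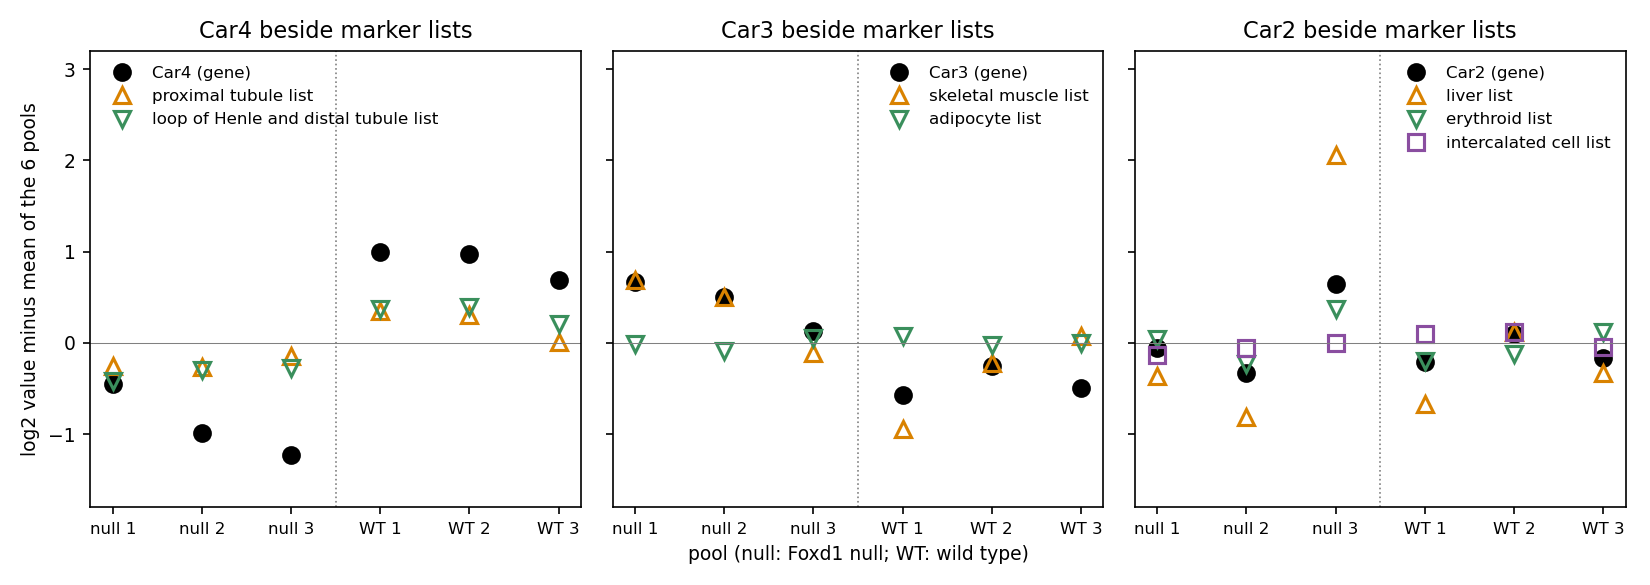
Log2 value minus the mean of the 6 pools for Car4, Car3 and Car2 (black) and for the mean of the marker lists named in each panel (open symbols), with the null pools left of the dotted line and the wild type pools right of it. Car4 and both tubule lists are lower in every null pool, and Car3 and the skeletal muscle list are highest in null pools 1 and 2. Car2, the liver list and the erythroid list are highest in null pool 3 (the lists at 8.94 and 7.95 before the mean is taken off). The intercalated cell list is highest in wild type pool 2.

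Beside Car2, null pool 3 stood apart on liver markers, whose list averaged 6.52, 6.07 and 8.94 in null pools 1, 2 and 3, against 6.22, 7.00 and 6.56 in wild type pools 1, 2 and 3. The apolipoproteins Apoa2 and Apoa1 read 10.79 and 9.02 in that pool, against 8.29 and 7.33 in the next highest pool of each. The erythroid list was also highest there, at 7.62, 7.35 and 7.95 in null pools 1, 2 and 3 against 7.38, 7.46 and 7.70 in wild type pools 1, 2 and 3. Of its 13 genes 0 passed in limma's fit, with a median of 0.09, and 2 had an unadjusted p under 0.05 (14.1% of all genes). Of the 9 liver markers 0 passed, adjusted or at an unadjusted p under 0.05. The embryonic globins Hbb-y and Hba-x differed by 0.09 and -0.09. The intercalated cell list averaged 6.59, 6.67 and 6.72 in null pools 1, 2 and 3, against 6.82, 6.84 and 6.68 in wild type pools 1, 2 and 3, so it did not single out null pool 3. The part of these tissues in the Car2 value of null pool 3 was not tested.

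Beside the neural relatives Car10 and Car11, the neuron list averaged 7.08, 8.71 and 8.30 in null pools 1, 2 and 3, against 6.77, 7.14 and 7.36 in wild type pools 1, 2 and 3. Null pools 2 and 3 were highest on this list and on Car11, while Car10 was high only in pool 3. All 12 measured neuron markers lay above 0 (lowest 0.00, median 0.99), against 10858 of all 19938 genes. Of the 12, 8 had an unadjusted p under 0.05 (14.1% of all genes), and 1 passed in limma's fit, Elavl4 (0.62, SE 0.13, adjusted p = 0.0383). Elavl4 lost the call in 7 of its 15 alternatives, 5 of them fits without 1 pool, any but null pool 1 (up to 0.154). The part of neurons in the Car10 and Car11 values was not tested.

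The remaining marker lists stand beside no single member. Where 1.64% of all genes rose, 4 of 12 macrophage markers did (Ctss, Mrc1, Tyrobp and Ptprc, by 0.42 to 0.69), and of 10 endothelial markers 3 rose (Pecam1, Tek and Kdr, by 0.47 to 0.54). Only Mrc1 of these 7 kept its call in every fit without 1 pool, the others losing it without null pool 2 and at least 1 wild type pool (adjusted p up to 0.133, for Kdr), and all 7 lost it when all array rows were tested (0.0741 for Mrc1 to 0.169 for Kdr). Of 17 markers of ureteric bud and collecting duct 1 rose (Upk1b by 0.89, SE 0.09).

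The partners of carbonic anhydrases in acid-base transport were examined as lists. These lists too were chosen with earlier results of these data known, so the calls in them, that of Slc26a7 among them, are a description. Of 52 measured bicarbonate transporters, sodium-proton exchangers and proton pump genes, 1 rose and 1 fell, where 1.64% of all genes rose and 0.767% fell. Nothing is read from these counts. Slc26a7, an anion exchanger that carries bicarbonate and chloride, read 9.63, 9.93 and 10.05 in null pools 1, 2 and 3, against 8.42, 8.40 and 8.46 in wild type pools 1, 2 and 3. The lowest null pool stood 1.17 above the highest wild type pool, where 19.5% of all genes had groups without overlap. Slc26a7 rose by 1.44 (SE 0.10, adjusted p = 0.00032 in limma's fit). It was the only one of 17 Slc4 and Slc26 genes to pass, and the list median was 0.01.

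Atp6v0a4, a membrane subunit of the proton pump of intercalated and proximal tubule cells, read 6.50, 6.93 and 6.55 in null pools 1, 2 and 3, against 7.47, 7.38 and 7.04 in wild type pools 1, 2 and 3. The groups were separated by 0.10 between null pool 2 and wild type pool 3. The log2 level fell by 0.64 (SE 0.14), with an adjusted p = 0.0485. Of 24 proton pump genes 3, and of 14 intercalated cell markers 5, had an unadjusted p under 0.05 in limma's fit (14.1% of all genes). Both lists hold Atp6v0a4, which was the only gene of either to pass (2.40% of all genes passed). The call was lost in 6 of its 15 alternatives, among them quantile normalization (0.0546), all rows (0.205), and the fits without null pool 1 (0.0924) or 3 (0.153) or without wild type pool 1 (0.196) or 2 (0.169).

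Among 11 sodium-proton exchangers and their regulators 0 passed in limma's fit, adjusted or at an unadjusted p under 0.05, with differences from -0.25 to 0.18; Slc9a3r2 and Slc9a8 differed by 0.09 and -0.05. Among 5 ammonia handling genes 0 passed in limma's fit, and 2 had an unadjusted p under 0.05 (14.1% of all genes). The ammonia transporter Rhcg differed by -0.38 (SE 0.09, adjusted p = 0.0776, and 0.0443 with the intensity trend and robust model). Glud1 differed by -0.24 (SE 0.09, adjusted p = 0.255). Car9 is a classical target of the hypoxia response. Of 14 other hypoxia-induced genes 1 rose (1.64% of all genes), the collagen prolyl hydroxylase subunit P4ha1 (0.56, SE 0.12, adjusted p = 0.0389), and the median over the list was 0.09. P4ha1 lost the call in 6 of its 15 alternatives, including the fits without any single pool other than null pool 2 (up to 0.145).

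**Figure D4:**
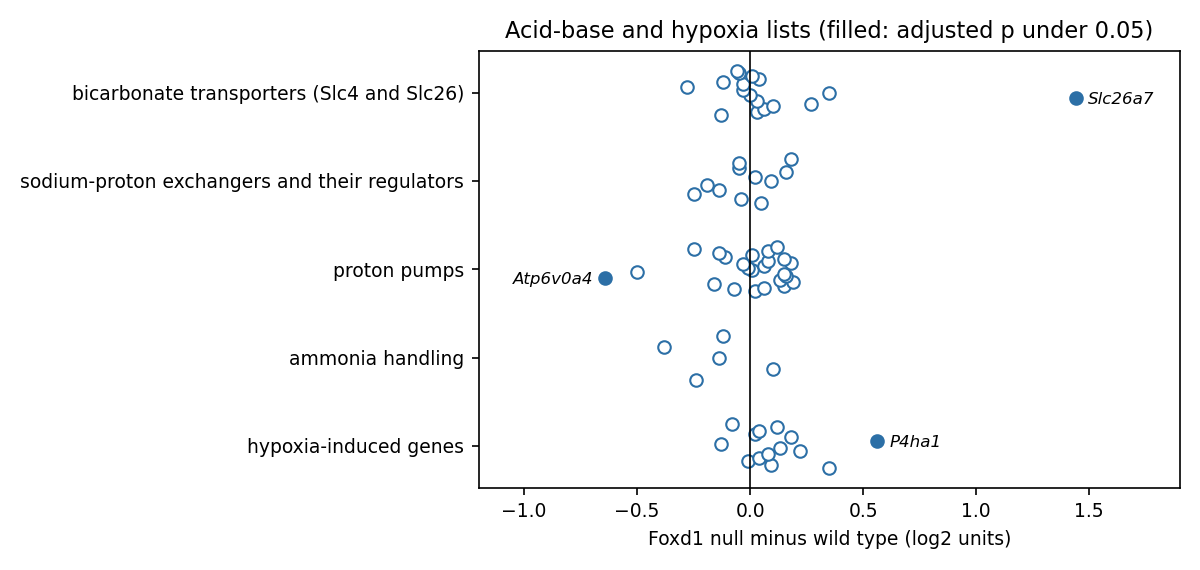
Foxd1 null minus wild type difference in log2 units for each measured gene of the acid-base and hypoxia lists, 1 point per gene; filled points passed an adjusted p of 0.05 over all genes. Slc26a7 (1.44), Atp6v0a4 (-0.64) and P4ha1 (0.56) are the filled points, and the other genes lie between -0.50 and 0.35.

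The genes whose profile over the 6 pools was most like that of Car4 were Cbr1, a carbonyl reductase, Dnajc2, Pcbd1, Tuba4a and Znhit2, with Pearson r of 0.99 or more. Their differences were smaller than that of Car4, at -0.27, -0.19, -0.49, -0.69 and -0.23. Since these genes were picked for following Car4 across both genotypes, no test is given for them. With the group means taken off, so that only the spread among pools of a genotype counts, the nearest profiles were those of Igsf5, Zfp595, Gtf2a1l, Polr2k and Tmpo, with r from 0.9956 to 0.9999. Of these Igsf5, an adhesion protein of epithelial junctions, differed by -0.43 (SE 0.12, adjusted p = 0.112, and 0.011 without null pool 1) and the others by -0.09 to 0.09. Igsf5 was picked for following Car4, whose null pool 1 was the highest of its group. Nothing is therefore read from its fit without that pool. With 6 points from shared arrays and 19938 genes searched, these r are a description.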

How the data were processed

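The deposited values are 1 log2 expression value per probe set and pool; how they were summarised and scaled is not stated in the sources used here. Their log2 base was read from a slope of 1.50 against the natural log group medians of the authors' deposited table (1.44 for log2), which covers 488 probe sets. That table also holds the authors' signed linear fold, treated here as a score, and deposited p-values whose tests are not given. Per the labels' protocols, the RNA was amplified and biotin-labelled with whole-transcript kits.

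Of 35556 rows, 21789 carried 1 symbol in the platform annotation, 1621 several and 12146 none; keeping each gene's row of highest mean left 19938 genes, unfiltered. The fit used limma 3.58.1 under R 4.3.3 (lmFit, then eBayes; genotype was the only term; two-sided, Benjamini-Hochberg over all genes, threshold 0.05), tested on simulated data. Adjusted p-values are from this fit unless an alternative is named. An exact test of 3 against 3 pools cannot give a two-sided p under 0.1. Any 2 pools share at least 1 of the 3 litters, so the pools are not fully independent, and the fit has no term for litter, which is not labelled per pool. Differences are null minus wild type.

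The members and gene lists were chosen with earlier results of these data known. Named genes are all family genes, Foxd1, up to 4 called genes per list with the largest difference (where none passed, the 2 brightest), and the 5 nearest to Car4 by each measure. Alternatives were quantile normalization, median centring, a filter on the dimmest 25% of genes, all rows, a gene's second row, 2 variance models, array weights, a replicate block and leaving out each pool.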

Additional observations from a re-analysis of the deposited data

How the results depend on the processing

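With a single row for each family gene, the choice of row could not change them. Testing all 35556 rows of the array, among them rows with no symbol or several, gave 71 rows higher and 37 lower. These are counts of rows, unlike the 326 and 153 genes of the fit on 19938 genes. Among the called rows were 0 members and 1 transport gene higher, and 1 member and 0 transport genes lower. Quantile normalization also left 0 transport genes lower. Leaving out 1 pool at a time gave 127 to 572 genes higher and 64 to 171 lower, 0 to 1 members higher, and 0 to 1 transport genes lower. Car4 remained lower in all 15 alternatives (differences -1.99 to -1.61). Car3 remained positive in all 15 and lost its call in 3.

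Among genes without a call, leaving out 1 pool turned the sign of Car2 (-0.10 to 0.39), Car7 (-0.08 to 0.07), Car5a (-0.07 to 0.08) and Car15 (-0.09 to 0.01).
Likewise it turned that of Hbb-y (-0.08 to 0.32), Hba-x (-0.29 to 0.29), Apoa2 (-0.34 to 1.47), Apoa1 (-0.10 to 0.91), Lpl (-0.01 to 0.18), Zfp595 (-0.11 to 0.07), Gtf2a1l (-0.12 to 0.03) and Polr2k (-0.01 to 0.18), and array weights gave Hba-x 0.02; the cause was not tested.

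Pools with the same number share only a number in the labels. The correlations of their deviations from the group means were 0.125, 0.068 and 0.053 for numbers 1, 2 and 3, and each pool correlated best with its own number, a hint from the data and not from the design. With the replicate block 381 genes were higher and 158 lower, and Car3 kept its call (adjusted p = 0.00961); Ptprc (0.0568), Kdr (0.0657) and Tnnt3 (0.0539) lost their calls and Igsf5 gained one (0.0494).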
